A study of Mus musculus with 26 samples.

Results

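The genes described here are chemokines and a set of interleukin, interleukin-related and colony-stimulating cytokine genes, followed across 26 mouse skin cell lines with 1 Affymetrix M430 2.0 array each. They were chosen by symbol: every Ccl or Cxcl gene numbered with digits alone, and 13 named cytokines (Cx3cl1, Il1a, Il1b, Il1rn, Il6, Il11, Il18, Il33, Lif, Csf1, Csf2, Csf3 and Tslp). Of 18193 genes with a probe set assigned to a single gene, 43 met the rule: 17 Ccl genes, 13 Cxcl genes and all 13 named ones. Each gene was read from 1 probe set, the one with the highest mean over the 26 arrays. Ccl19 and Ccl26 were not analysed here.

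The lines were grown in serum and sampled in log phase. A line entered a group only where its cell type label and its flags gave the same class. C5N and NK were immortalised keratinocytes (n = 2), NK coming from a mouse null for a gene that is not named here. P6 came from a benign papilloma (n = 1). The carcinoma lines without spindle pathology (spindle flag 0, called non-spindle below, n = 12) were B9, B9ras, B9rassmad, PDV, PDVC57, E4, SN161, MSC7A, MSC11B, MSC12, MSCP1 and MSCP5. The carcinoma lines with spindle pathology (flag 1, called spindle, n = 7) were A5, CarB, CarC, D3, D3DP, H11 and MSN2. SN161 arose in a Spretus/NIH cross and MSCP5, MSC12, MSCP1, MSC11B, MSC7A and MSCb1 in Spretus/CBA crosses. 4 lines entered no comparison: 2945CA and MSCb1, whose spindle flag is not stated, B9Smad, labelled as spindle but flagged 0, and a keratinocyte line whose keratinocyte flag is 0. The title of that keratinocyte line marks it as null for a gene that is not named here. Each line is a single cultured population on a single array. The tests therefore measure the spread between lines, which share name families and may not be independent, and the number of arrays limits their precision.

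Chemokines are small secreted or membrane-tethered proteins that draw leukocytes along a gradient through G-protein-coupled receptors. They are grouped by the spacing of their first cysteines into CC, CXC and CX3C families. Keratinocytes are known to store or secrete interleukin-1 and related cytokines and to answer them through NF-kB, which drives many chemokine genes, and skin tumours recruit neutrophils and macrophages in part through such products.

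Values are the authors' log2 RMA values, on which 1 unit is a 2-fold difference. The median over all probe sets of an array lay between 5.04 and 5.15, and a gene above its array's median is called above the median below. Probe sets differ in how brightly they read, so a level is compared between lines, never between genes. An array also cannot tell fewer expressing cells from less RNA per cell. Of 19 measured leukocyte markers, 11 were above the median in no line. They included Ptprc (at most 4.98), Itgam (at most 3.74), Adgre1 (at most 4.92) and Tyrobp (at most 4.68), and between 5 and 8 of the 19 were above the median in any 1 line. The log2 of their summed level was 9.05 to 9.16 in keratinocytes, 9.15 to 11.37 in non-spindle and 9.52 to 10.03 in spindle lines. Among those that were, Cd68 reached 9.995 in SN161, Cd14 11.34 in MSCb1 and Lyz2 8.09 in MSC12, lines in which several of the genes below were also highest; their part in those values was not tested. Keratinocyte markers separated the non-spindle lines among themselves. Of 11 such markers, 2 were above the median in MSC12 and in MSC7A and 6 in MSC11B and in E4, while the other 8 non-spindle lines had 7 to 11 and the spindle lines 2 to 5.

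In each line between 17 and 27 of the 43 genes were above the median (median 21.5 over the 26 lines). The fewest were in NK and B9rassmad (17 each) and the most in CarC (27). As a share of the 43 genes this was 39.5% to 62.8%, while 58.5% to 62.2% of all 18193 genes were above the median in a line. By stage label the ranges overlapped: 17 to 21 in the 3 lines labelled keratinocyte, 23 in the papilloma line, 17 to 26 in the 14 labelled carcinoma and 19 to 27 in the 8 labelled carcinoma with spindle morphology. By spindle flag they overlapped too, with 17 to 26 (median 21) in the 17 lines flagged 0, 19 to 27 (median 21) in the 7 flagged 1, and 23 and 25 in the 2 lines with no stated flag. A stricter threshold of 1 log2 unit above the median left 7 genes in C5N and up to 18 in SN161 and CarC. More than 3 log2 units above it stood 13 genes in SN161 and 12 in P6, and 3 or 4 in the keratinocyte lines C5N and NK.

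**Figure D1:**
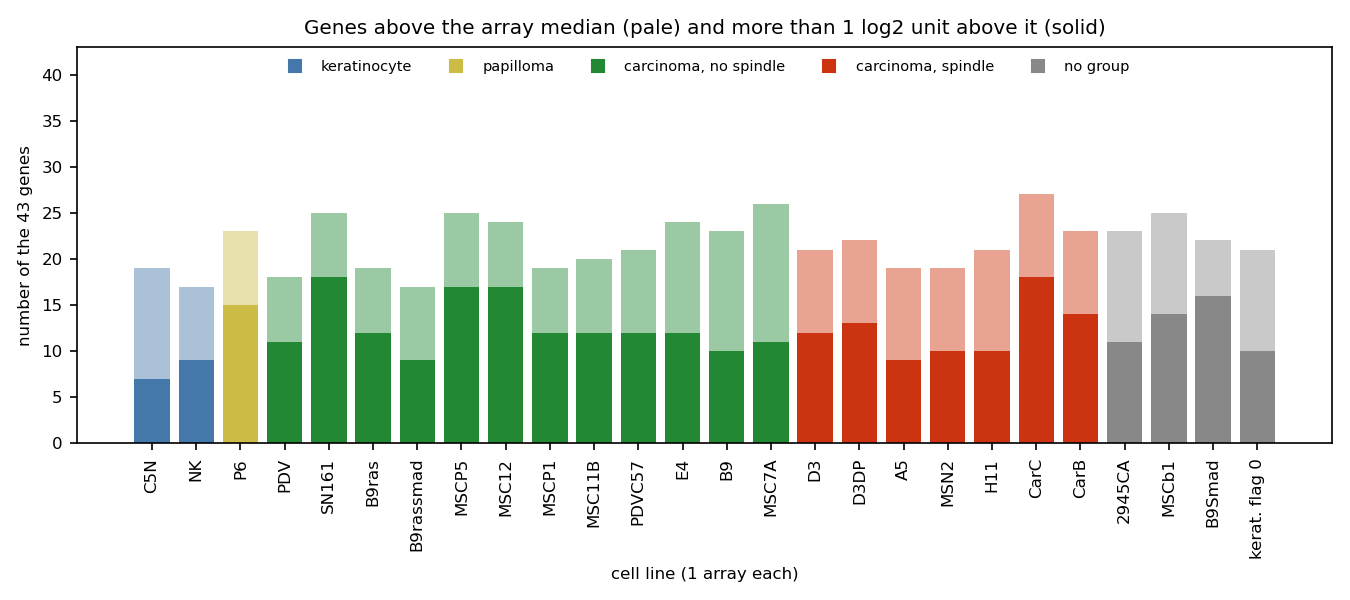
Number of the 43 genes above the array median (pale bars, whole height) and more than 1 log2 unit above it (solid bars) in each of the 26 lines, 1 array per line, coloured by group. Pale bars run from 17 in NK and B9rassmad to 27 in CarC, and the groups overlap.

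Of the 43 genes, 10 were above the median in every line on the probe set used: Ccl2, Ccl4, Ccl24, Ccl28, Cxcl1, Cxcl16, Cx3cl1, Csf1, Il18 and Il1rn. In no line were 7 above it: Ccl1, Ccl3, Ccl11, Ccl12, Ccl22, Cxcl9 and Cxcl11. They include the interferon-induced Cxcl9 and Cxcl11, which attract T cells through Cxcr3, and Ccl11 (eotaxin), which attracts eosinophils. In a single line 3 more were above it: Ccl6 in C5N (5.47), Cxcl14 in C5N (6.56) and Cxcl15 in MSCb1 (10.66). For Cxcl14 this depended on the probe set. Its second probe set was above the median in C5N (7.45), MSCP5 (5.97), NK (5.95) and P6 (5.23). On that probe set the mean differed from that of keratinocytes by -3.05 in non-spindle and -3.32 in spindle lines. The 10 genes above it in every line depended on the probe set in part. The other Ccl28 probe sets, and some of those of Cx3cl1, were above it in 0 lines. Other probe sets of Il1rn were above it in 17 and 20 lines, that of Cxcl16 in 23 and 1 of Csf1 in 21. All Cxcl1 probe sets were above it in every line. The other 23 of the 43 genes were above it in 2 to 25 lines.

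Counts by stage label differed for some of these 23 genes and were not tested. Ccl7, a monocyte attractant, was above the median in 0 of 3 lines labelled keratinocyte, in 6 of 14 labelled carcinoma and in 8 of 8 labelled carcinoma with spindle morphology. Csf3, the granulocyte colony-stimulating factor, was above it in 5 of 14 lines labelled carcinoma and in 0 of 8 with spindle morphology. For Il1a the counts were 8 of 14 and 2 of 8, and for Cxcl2 8 of 14 and 2 of 8. For Cxcl3 they were 11 of 14 and 4 of 8, and for Tslp 10 of 14 and 4 of 8. Of the 3 lines labelled keratinocyte, Cxcl3 was above the median in 2 and Il1a, Cxcl2 and Tslp in 1 each. The 8 lines include B9Smad, flagged 0, which was above the median for Ccl7, Il1a, Cxcl2, Cxcl3 and Tslp. By flag, Il33 was above the median in 7 of 17 lines flagged 0 and 5 of 7 flagged 1. The counts were 3 of 17 and 4 of 7 for Ccl5, and 5 of 17 and 6 of 7 for Cxcl10. Cxcl10 lay near the median, at 4.98 to 5.45, in all spindle lines but D3DP (6.97). Its spindle minus non-spindle difference was 0.17 (SE 0.36, adjusted p = 0.828 by limma). Being above the median did not mean a wide range. Ccl4, Ccl17, Ccl24, Ccl28, Cxcl13, Cxcl17 and Il1b each spanned under 1 log2 unit over all 26 lines and never stood more than 1 above an array's median.

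**Figure D2:**
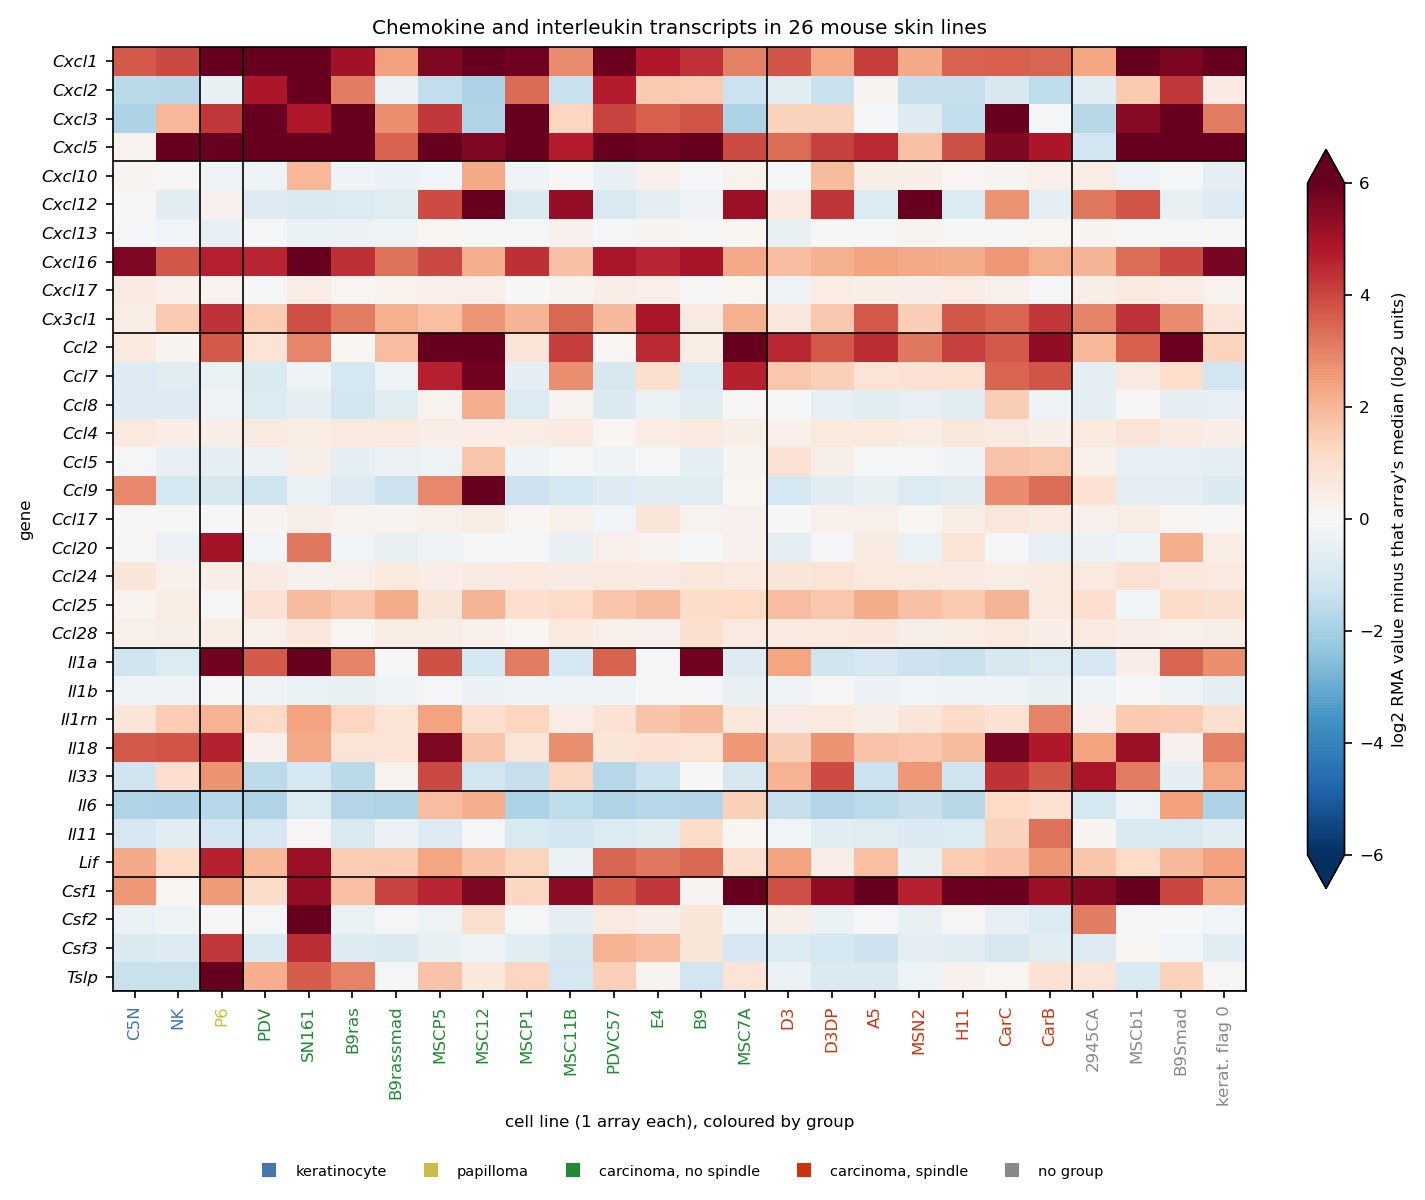
Log2 RMA value minus the array's median (colour, log2 units, clipped at 6 either way) of the 33 genes tested (rows), in 26 lines (columns) ordered by group, with black lines between groups and gene classes. Cxcl1 and Cxcl16 are red in every line, and Csf1 in most, being close to white in NK and B9. Il1a and Cxcl2 are red mostly in non-spindle lines, and Ccl2 and Ccl7 are reddest in MSCP5, MSC12 and MSC7A.

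For the comparisons, a linear model of the 3 groups (limma) was fitted over 12641 genes that were above the median on 2 or more arrays, and p-values were adjusted over all of them. The filter kept 33 of the 43 genes. Between spindle and non-spindle lines none of the 33 was called at an adjusted p under 0.05, against 0.0633% of all genes tested (8 of 12641), and no gene of the 33 separated these groups without overlap (0.0554% of all genes). At an unadjusted p under 0.05, 2 of the 33 were higher in spindle lines (Il33 and Csf1; 11.5% of all genes) and 6 were lower (Cxcl16, Cxcl5, Il1a, Cxcl1, Cxcl2 and Tslp; 9.17% of all genes). The median difference of the 33 genes was 0.02, and that of all genes tested 0.04. Against keratinocytes, non-spindle lines had no called gene among the 33 (2.02% of all genes), 3 higher at an unadjusted p under 0.05 (Ccl25, Tslp and Cxcl5; 5.42% of all genes) and none lower (6.57%). Both groups lay apart without overlap for 2 genes that were higher, Ccl25 and Tslp (2.69% of all genes), and for none that were lower (2.97%). Here the median difference was 0.52 among the 33 genes and 0.02 over all genes.

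Spindle lines compared with keratinocytes gave the only call. Of the 33 genes, 1 was called (5.35% of all genes), Ccl25, which was higher in spindle lines (2.4% of all genes in that direction). At an unadjusted p under 0.05, 3 were higher (Ccl25, Csf1 and Ccl2; 10.7% of all genes) and 1 was lower (Cxcl16; 9.92%). The groups did not overlap for 8 genes that were higher (Ccl2, Ccl7, Ccl8, Ccl25, Csf1, Cxcl2, Il6 and Tslp; 12.9% of all genes) and for Cxcl16, which was lower (10.1% of all genes). With 2 keratinocyte lines, complete separation is common over all genes. For Il6, Cxcl2, Ccl8 and Tslp it lay partly among low values. These genes were above the median in 2, 1, 1 and 3 of the 7 spindle lines, in that order, and in neither keratinocyte line. Their lowest spindle values were 3.32, 3.61, 4.44 and 4.19, against at most 3.29, 3.48, 4.32 and 3.76 in keratinocytes. The 3 comparisons share groups, so their results are not independent of each other.

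Whether genes passed between spindle and non-spindle lines turned on MSC7A, MSC11B and MSC12, which earlier results of these data had set apart for their low epithelial transcripts although they carry spindle flag 0. Without them, 8 of the 33 genes were called: Cxcl1, Cxcl2, Cxcl3, Cxcl5, Cxcl16 and Il1a lower in spindle lines (7.09% of all genes were called lower) and Csf1 and Ccl5 higher (8.37% of all genes). The share of all genes called rose as well, from 8 to 1954 of 12641. Without MSC11B alone, 1 gene was called, Cxcl16 (a difference of -1.95, adjusted p = 0.0297), where 1.98% of all genes were called lower. Since the lines were set apart by their values, these counts describe the remaining lines and are no independent test.

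The CXC chemokines that attract neutrophils through Cxcr2, namely Cxcl1, Cxcl2, Cxcl3 and Cxcl5, lie together on chromosome 5, with Cxcl15 and the platelet chemokine genes Ppbp and Pf4 in the same run of 7 protein-coding genes. The 120 bases upstream of the RefSeq start of Cxcl1 (chr5:90891125-90891244), Cxcl2 (chr5:90903779-90903898) and Cxcl3 (chr5:90785981-90786100), all on the plus strand of GRCm38.p6 and written 5′ to 3′, are shown because these neighbours held the same motif. Capitals mark an 11-base run in which the NF-kB consensus matches on both strands.
Cxcl1: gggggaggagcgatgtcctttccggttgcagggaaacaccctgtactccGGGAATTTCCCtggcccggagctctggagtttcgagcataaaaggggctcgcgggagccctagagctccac
Cxcl2: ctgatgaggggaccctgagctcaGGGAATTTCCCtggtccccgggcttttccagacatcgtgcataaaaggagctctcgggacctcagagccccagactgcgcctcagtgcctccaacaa
Cxcl3: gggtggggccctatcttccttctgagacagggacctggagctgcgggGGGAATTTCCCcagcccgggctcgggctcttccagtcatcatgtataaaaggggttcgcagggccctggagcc
The run GGGAATTTCCC was identical in all 3 and began 71 bases before the start in Cxcl1, 97 in Cxcl2 and 73 in Cxcl3.

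Promoter windows were found for 31 of the 43 genes (36 windows). Within 250 bases upstream, the NF-kB consensus, searched on both strands, occurred in 27.8% of these windows, in Ccl1, Ccl9, Ccl20, Csf1, Cxcl1, Cxcl2, Cxcl3, Cxcl10, Il6 and Lif. It occurred in 7.25% of 32851 windows of all genes. No match was found for Cxcl5, for which a window may be lacking. The AP-1 motif TGANTCA, searched likewise, occurred in 19.4% of the windows, in Ccl9, Cxcl10, Il1a, Il1rn, Il6, Il11 and Lif, and in 6.75% of all windows. Ccl9, Cxcl10, Il6 and Lif held both. A match is a run of letters and not a measured binding site.

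Cxcl1 was well above the median in every line. It read 8.74 in C5N and 9.02 in NK, 12.70 in P6, 7.52 to 13.42 (median 10.42) in non-spindle lines and 7.33 to 9.23 (median 8.65) in spindle lines. SN161 and PDV were the highest non-spindle lines, and every spindle line lay below the non-spindle median. The spindle mean was lower, at 8.38 ± 0.73 (SD, n = 7) against 10.2 ± 1.79 (SD, n = 12), a difference of -1.84 (SE 0.66, adjusted p = 0.141 by limma). Cxcl5 differed by -2.31 (SE 0.81, adjusted p = 0.136), with 6.83 to 10.63 (median 9.19) in spindle and 8.62 to 13.38 (median 11.88) in non-spindle lines. The groups overlapped in both genes.

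Cxcl5 also divided the keratinocytes, at 5.28 in C5N and 11.72 in NK, and it was lowest of all in 2945CA, at 3.96. The non-spindle minus keratinocyte difference of 2.89 (SE 1.30, adjusted p = 0.368) therefore rested on which keratinocyte line was kept. It was -0.34 without C5N and 6.11 without NK, where it was called (adjusted p = 0.0336). Cxcl3 behaved alike in the keratinocytes, at 3.21 in C5N and 7.05 in NK.

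Cxcl2 and Cxcl3 were below the median in part of each carcinoma group, and Cxcl2 also in both keratinocyte lines and P6. Cxcl2 read 3.48 in C5N, 3.40 in NK, 4.70 in P6, 3.20 to 11.40 (median 6.65) in non-spindle and 3.61 to 5.25 (median 3.75) in spindle lines. A5 alone among the spindle lines was above its array's median, while SN161, PDV and PDVC57 read 9.86 or more. Spindle lines were lower by a difference of -2.62 (SE 1.03, adjusted p = 0.169). Cxcl3 ranged from 3.19 in MSC7A to 12.29 in PDV among non-spindle lines (median 9.05) and from 3.61 in H11 to 11.21 in CarC among spindle lines (median 5.03), a difference of -2.60 (SE 1.30, adjusted p = 0.262). CarC stood apart from the other spindle lines in Cxcl3, of which the next, D3DP, read 6.45. In MSC12 and MSC7A Cxcl3 read 3.27 and 3.19 and Cxcl2 3.20 and 3.78, below the median, although Cxcl1 and Cxcl5 stayed above it there.

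**Figure D3:**
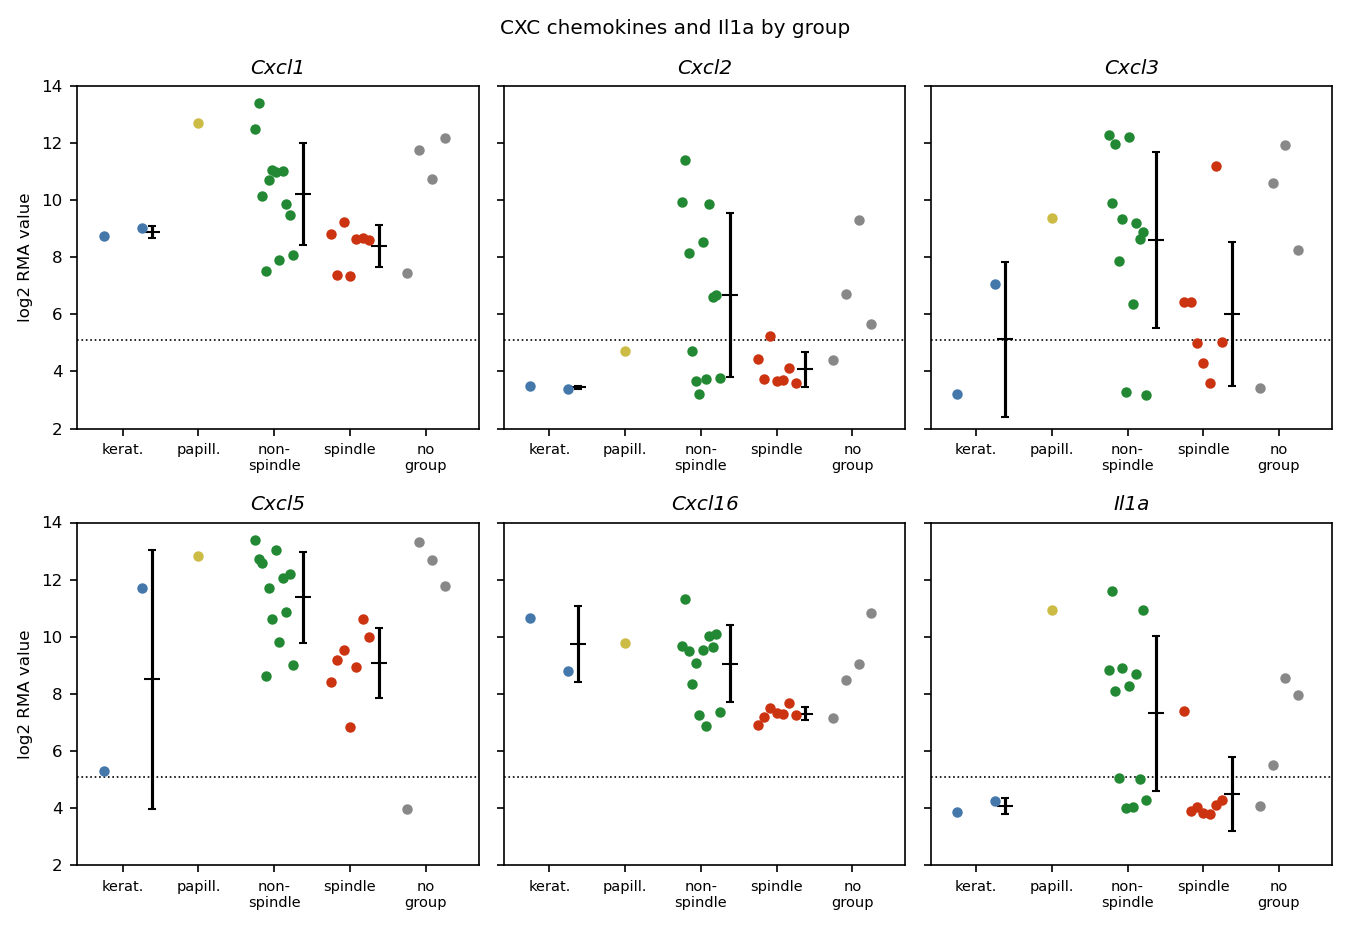
Log2 RMA values of Cxcl1, Cxcl2, Cxcl3, Cxcl5, Cxcl16 and Il1a by group, 1 point per line, with bars for the mean and SD of the keratinocyte (n = 2), non-spindle (n = 12) and spindle (n = 7) groups and a dotted line at the median array median, 5.09. The spindle mean is lower than the non-spindle mean in each panel, and the points of these groups overlap.

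Cxcl16 and Cx3cl1 encode chemokines made as transmembrane proteins, of which Cxcl16 attracts Cxcr6-bearing T cells and Cx3cl1 (fractalkine) binds Cx3cr1. Cxcl16 read 10.67 in C5N, 8.79 in NK and 9.79 in P6. In spindle lines it lay between 6.90 and 7.66 (mean 7.31 ± 0.24, SD, n = 7), below both keratinocyte lines and the papilloma line. The non-spindle lines spanned 6.87 to 11.33 (mean 9.06 ± 1.34, SD, n = 12). MSC11B (6.87), MSC12 (7.25) and MSC7A (7.36) read no higher than the highest spindle line, MSC11B lying below all 7, and the other 9 read 8.33 or more. Among the carcinoma lines the log2 summed level of the 11 keratinocyte markers was low where Cxcl16 was low. It was 8.66 to 10.32 in spindle lines, 8.46 to 9.09 in those 3 lines, 11.03 to 15.97 in the other 9 and 15.51 to 15.56 in C5N and NK, and its part in the Cxcl16 values was not tested. How the CXC genes above stood beside the marker level varied between lines and was not tested. In C5N and NK, where the marker level was high, Cxcl2 was below the median and Cxcl1 lay within the spindle range. The keratinocyte line whose keratinocyte flag is 0 had a marker level of 15.84. It read 12.19 for Cxcl1 and 5.66 for Cxcl2, both above the median. MSC12, with a marker level of 8.62, read 11.07 for Cxcl1. For Cxcl16 the spindle minus non-spindle difference was -1.75 (SE 0.50, adjusted p = 0.0981), a 3.36-fold lower mean. Leaving out those 3 lines made it -2.38 (SE 0.34, adjusted p = 0.000271). Against keratinocytes the spindle difference was -2.42 (SE 0.84, adjusted p = 0.1), and it rested on which keratinocyte line was kept, at -1.48 without C5N (adjusted p = 0.557) and -3.36 without NK (adjusted p = 0.15). The other probe set of Cxcl16 gave -2.86 for spindle against non-spindle lines, in the same direction. Cx3cl1 was above the median in all lines on the probe set used, from 5.52 in C5N to 9.93 in E4, and its groups overlapped.

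Cxcl12 (SDF-1), a ligand of Cxcr4 and of the scavenging receptor Ackr3, ranged from near background to very high. It read 5.03 in C5N, 4.41 in NK and 5.41 in P6. Among non-spindle lines MSC12 (11.84), MSC11B (10.37), MSC7A (10.20) and MSCP5 (9.02), all from Spretus/CBA crosses, were above the median and the other 8 read at most 4.95, among them MSCP1 (4.29) from the same crosses. Among spindle lines MSN2 (11.52), D3DP (9.38), CarC (7.76) and D3 (5.60) were above it and A5, H11 and CarB were not. The group means differed by 0.38 (SE 1.30), far less than the spread within either group, and the sign of this difference changed without MSN2 (-0.41) or D3DP (-0.06). Cxcl10, an interferon-induced ligand of Cxcr3, exceeded 6 in MSC12 (7.35), SN161 (7.10) and D3DP (6.97).

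Ccl2 (MCP-1), Ccl7 and Ccl8 attract monocytes through receptors that include Ccr2. They lie in 1 run on chromosome 11, in the order Ccl2, Ccl7, Ccl11, Ccl12, Ccl8 and Ccl1, and of these 6 genes Ccl11, Ccl12 and Ccl1 were above the median in no line. Ccl2 read 5.68 in C5N and 5.24 in NK, 8.80 in P6, 5.22 to 12.41 (median 7.49) in non-spindle lines and 8.22 to 10.46 (median 9.20) in spindle lines. All 7 spindle lines lay above both keratinocyte lines, by a mean difference of 3.75 (SE 1.66, adjusted p = 0.203). MSC12, MSC7A (11.98) and MSCP5 (11.53) were higher than any spindle line, and 5 non-spindle lines (PDV, B9ras, MSCP1, PDVC57 and B9) read under 6. The spindle minus non-spindle difference was 1.07 (SE 0.98, adjusted p = 0.559).

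Ccl7 was below the median in both keratinocyte lines (4.30 and 4.36) and in P6 (4.75). It was above it in all 7 spindle lines (5.90 to 8.91, median 6.52) and in 5 non-spindle lines: MSC12 (10.84), MSCP5 (9.75), MSC7A (9.72), MSC11B (7.89) and E4 (6.0). The spindle minus non-spindle difference was 0.67, lay between 0.34 without CarB and 1.09 without MSC12, and changed sign, to -0.27, when lines of 1 name family were averaged. Fibroblast marker levels are given beside Ccl2, Ccl7 and Cxcl12. Of 10 such markers, between 7 and 9 were above the median in MSC12, MSC7A and MSC11B, 6 in MSCP5, 6 to 9 in the spindle lines, 2 to 7 in the other 8 non-spindle lines and 4 or 5 in C5N and NK. The log2 of their summed level was 14.26 to 16.21 in spindle lines, 8.93 to 16.12 in non-spindle lines and 11.94 to 12.27 in keratinocytes. Their part in the chemokine values was not tested.

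Other CC chemokines were high in a few lines each. Ccl9, a macrophage-lineage chemokine of mice, read 11.38 in MSC12, 8.50 in CarB, 7.98 in MSCP5, 7.94 in C5N and 7.91 in CarC, against 5.97 or less elsewhere. Ccl5 (RANTES), which attracts T cells and monocytes, reached 6.75 in CarC, 6.74 in CarB and 6.73 in MSC12, and its spindle minus non-spindle difference was 0.62 (SE 0.30, adjusted p = 0.25). Ccl20, which attracts Ccr6-bearing cells, was highest in P6 (10.15), followed by SN161 (8.25) and B9Smad (7.26), with 5.90 or less in the other lines.

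Ccl25, best known as a thymic and intestinal attractant of Ccr9-bearing T cells, was the 1 gene called. It read 5.27 in C5N and 5.50 in NK, 5.19 in P6, 5.82 to 7.31 (median 6.51) in non-spindle lines and 5.70 to 7.29 (median 6.81) in spindle lines. On this probe set every line of both carcinoma groups read above both keratinocyte lines. The spindle mean of 6.74 ± 0.51 (SD, n = 7) exceeded the keratinocyte mean of 5.38 ± 0.17 (SD, n = 2) by 1.35 (SE 0.37, adjusted p = 0.0392), a 2.55-fold rise. In non-spindle lines the difference from keratinocytes was 1.17 (SE 0.35, adjusted p = 0.106). Outside the groups, MSCb1 (4.96) was lower than both keratinocyte lines, and the keratinocyte line whose keratinocyte flag is 0 read 6.13, within the carcinoma range. The call was lost (adjusted p = 0.0531 to 0.24) without D3, D3DP, A5, MSN2, H11, CarC, C5N or NK, each in turn. The mean over both Ccl25 probe sets gave 0.87 (adjusted p = 0.101). Placing the 4 lines without a group by their cell type label gave 1.03 (adjusted p = 0.107). On the second probe set the difference from keratinocytes was 0.40 for spindle and 0.21 for non-spindle lines. There C5N read 5.81 and NK 5.88, and MSCP5 (5.30), MSC7A (5.49), CarB (5.60) and PDVC57 (5.72) lay below both.

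**Figure D4:**
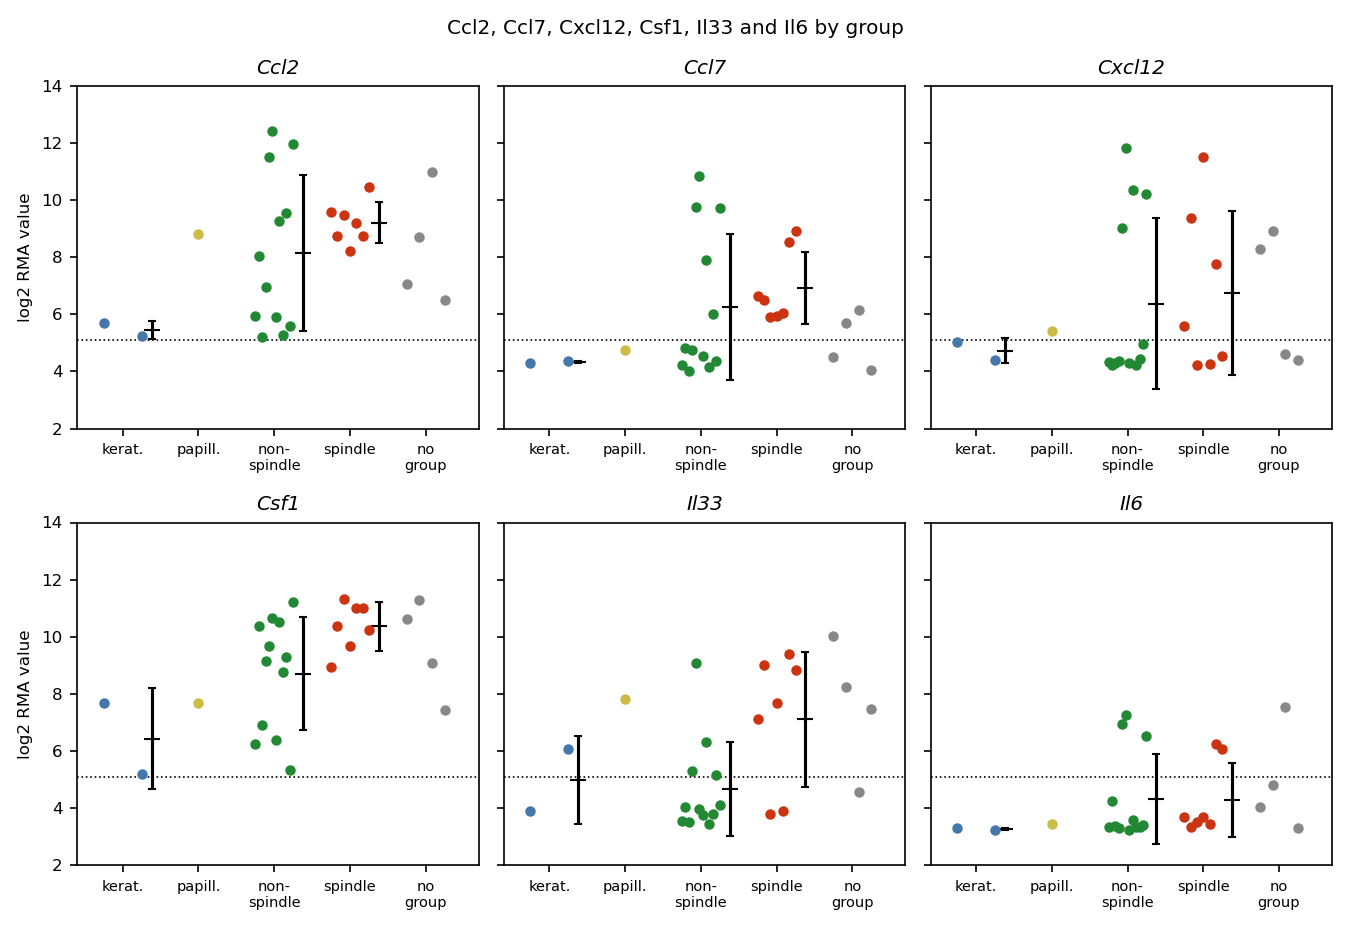
Log2 RMA values of Ccl2, Ccl7, Cxcl12, Csf1, Il33 and Il6 by group, 1 point per line, with bars for the mean and SD of the keratinocyte (n = 2), non-spindle (n = 12) and spindle (n = 7) groups and a dotted line at the median array median, 5.09. Ccl2 and Csf1 in spindle lines lie above both keratinocyte lines, and Cxcl12 and Il6 split each carcinoma group into high and low lines.

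The interleukin-1 family members measured were the agonists Il1a and Il1b, the antagonist Il1rn, and Il18 and Il33. Il1a, stored in epithelial cells and released on damage, read 3.86 in C5N, 4.25 in NK and 10.94 in P6. It was above the median in 7 of 12 non-spindle lines (range 4.01 to 11.60, median 8.18), highest in SN161, B9 (10.94) and MSCP5 (8.91). Among spindle lines D3 (7.39) alone was above it, and the other 6 read 3.77 to 4.29. The spindle minus non-spindle difference was -2.84 (SE 1.02, adjusted p = 0.141). It was -3.90 (SE 0.86, adjusted p = 0.00802) without MSC12, MSC11B and MSC7A, which read 4.01 to 4.29. The 120 bases before the Il1a start on the minus strand (chr2:129309973-129310092) carry an AP-1 match, in capitals, 12 to 6 bases before the start.
Il1a: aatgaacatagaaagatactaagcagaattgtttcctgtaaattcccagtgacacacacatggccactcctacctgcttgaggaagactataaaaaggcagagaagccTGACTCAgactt
Il1b, its neighbour on chromosome 2, was flat, at 4.59 to 5.17 over all lines, and Il1rn ranged from 5.35 in 2945CA to 8.10 in CarB.

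Il33, a nuclear cytokine of epithelial and stromal cells that acts on innate lymphoid cells and mast cells, had a higher mean in spindle lines, where Il1a had a lower one. It read 3.88 in C5N, 6.08 in NK, 7.82 in P6, 3.45 to 9.09 (median 3.996) in non-spindle and 3.77 to 9.41 (median 7.67) in spindle lines. CarC, D3DP (9.01) and CarB (8.84) were highest among spindle lines and A5 (3.77) and H11 (3.89) lowest, so the spindle lines covered most of the non-spindle range. The difference was 2.43 (SE 0.87, adjusted p = 0.139). The highest Il33 value of all, 10.01, was in 2945CA, which has no stated spindle flag. Il18, made by keratinocytes as an inactive precursor, was 8.77 in C5N and 8.87 in NK, 5.38 to 10.71 (median 5.96) in non-spindle and 6.53 to 10.76 (median 6.98) in spindle lines, with CarC and MSCP5 highest. Its non-spindle minus keratinocyte difference was -2.04 and did not pass.

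Il6, Il11 and Lif signal through the shared receptor chain gp130 (Il6st). Il6, the inflammatory member of the group, was above the median in B9Smad (7.55), MSC12 (7.25), MSCP5 (6.94), MSC7A (6.52), CarC (6.24) and CarB (6.06), and read 4.82 or less in the other 20 lines. Its values fell into high and low lines within both carcinoma groups, whose medians were 3.38 and 3.68. The Il6 promoter is shown because it too held the NF-kB consensus. Its 120 upstream bases on the plus strand (chr5:30012994-30013113) carry the NF-kB match in capitals, 44 to 35 bases before the start.
Il6: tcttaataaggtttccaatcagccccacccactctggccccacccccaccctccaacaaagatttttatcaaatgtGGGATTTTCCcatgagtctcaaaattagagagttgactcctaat
Il11 was above 6 in CarB (8.37), CarC (6.45) and B9 (6.27). Lif, the leukaemia inhibitory factor, was above the median in 24 of 26 lines and highest in SN161 (10.21) and P6 (9.78).

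Among the colony-stimulating factors, Csf1, which sustains macrophages, was above the median in every line on the probe set used. It read 7.67 in C5N, 5.18 in NK, 7.69 in P6, 5.33 to 11.20 (median 9.22) in non-spindle and 8.92 to 11.33 (median 10.39) in spindle lines. Every spindle line exceeded both keratinocyte lines, by a mean difference of 3.94 (SE 1.28, adjusted p = 0.0789). This difference was 5.19 without C5N (adjusted p = 0.132) and 2.69 without NK (adjusted p = 0.595), and it passed without B9 (3.94, adjusted p = 0.0483). B9 (5.33), PDV (6.23), MSCP1 (6.38) and B9ras (6.91) were the low non-spindle lines. The spindle minus non-spindle difference was 1.66 (SE 0.76, adjusted p = 0.223), and 2.35 (SE 0.71, adjusted p = 0.0345) without MSC12, MSC11B and MSC7A, which read 10.51 to 11.20. All 4 Csf1 probe sets gave a positive difference, from 0.86 to 1.82.

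Csf2 (GM-CSF) and Csf3 were high in few lines. Csf2 read 11.78 in SN161 and 8.18 in 2945CA and 6.04 or less in the others. Csf3 read 9.54 in SN161, 9.38 in P6, 7.25 in PDVC57, 6.91 in E4 and 5.87 in B9, and stayed between 3.84 and 4.47 in all spindle lines. Tslp, an epithelial cytokine that acts on dendritic cells and type 2 lymphoid cells, read 3.76 in C5N and 3.73 in NK, the lowest values of any line, and 11.59 in P6. Non-spindle lines spanned 4.02 to 8.70 (median 6.15) and spindle lines 4.19 to 6.0 (median 4.77). The non-spindle minus keratinocyte difference was 2.40 (SE 0.88, adjusted p = 0.219), without overlap, and the spindle minus non-spindle difference was -1.24 (SE 0.55, adjusted p = 0.209).

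The papilloma line P6 has no replicate, so its values are compared without a test. More than 1 log2 unit above both keratinocyte lines were 12 of the 33 genes: Ccl2, Ccl20, Csf3, Cx3cl1, Cxcl1, Cxcl2, Cxcl3, Cxcl5, Il1a, Il33, Lif and Tslp. Over all genes tested 5.31% were so placed. None of the 33 lay more than 1 below both keratinocyte lines, where 3.05% of all genes did. Both counts were made against C5N and NK alone, and Cxcl2 in P6 (4.70) was below the median. The keratinocyte line whose keratinocyte flag is 0 read 12.19 for Cxcl1, 7.47 for Il33 and 5.66 for Cxcl2. P6 read 12.70, 7.82 and 4.70 in the same order. The rest of the 12 genes read more than 1 log2 unit lower in that line than in P6. The P6 values are those of 1 array.

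Single lines held many of the highest values. Among the 33 genes tested, SN161 was highest of all 26 lines in 7 (Csf2, Csf3, Cxcl1, Cxcl2, Cxcl16, Il1a and Lif) and MSC12 in 6 (Ccl2, Ccl7, Ccl8, Ccl9, Cxcl10 and Cxcl12). MSCb1 was highest in 4, each of which varied little over the lines (Ccl4, Ccl24, Cxcl17 and Il1b). P6 was highest in Ccl20 and Tslp, PDV in Cxcl3 and Cxcl5, CarC in Ccl5 and Il18 and CarB in Il11 and Il1rn. Of the genes not tested, Cxcl15 was also highest in MSCb1.

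Across the 26 lines, the pair with the highest correlation of 528 was Ccl2 with Ccl7 (Pearson r = 0.869, Spearman rho = 0.901, and r = 0.839 without the 2 lines farthest from the median of Ccl2). Cxcl3 with Cxcl5 gave 0.798, 0.836 and 0.779 in the same order. Csf3 with Lif gave 0.798, 0.588 and 0.596, Ccl7 with Ccl8 0.787, 0.763 and 0.696, and Ccl7 with Il6 0.782, 0.693 and 0.664. Neighbours on the chromosome did not always run together: r was 0.66 for Cxcl1 with Cxcl2 and 0.651 for Ccl17 with Cx3cl1, but 0.099 for Il1a with Il1b, -0.124 for Ccl4 with Ccl9 and -0.287 for Ccl4 with Ccl5, pairs in which Il1b and Ccl4 varied little. Ccl20 with Csf3 (r = 0.779) rested on P6 and SN161 and fell to 0.184 without them. The lowest correlation was that of Csf1 with Cxcl16 (r = -0.595). All pairs share the same arrays, their normalisation and the name families of the lines, and they are given as descriptions.

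**Figure D5:**
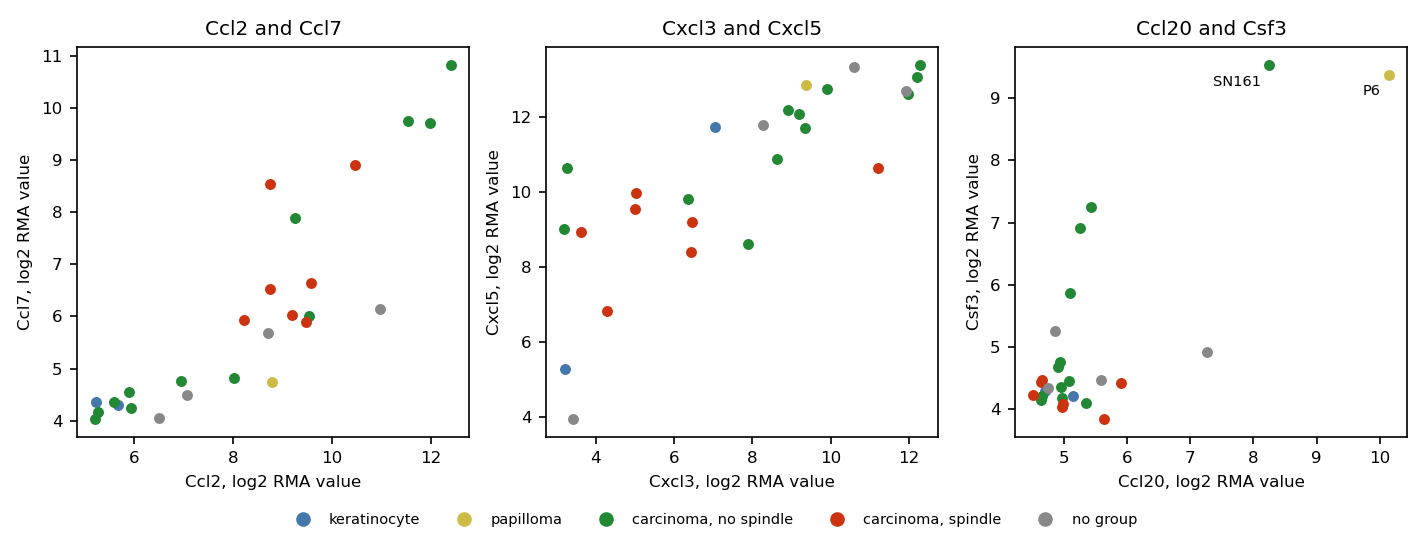
Log2 RMA values of Ccl2 against Ccl7, Cxcl3 against Cxcl5 and Ccl20 against Csf3 in 26 lines, 1 point per line, coloured by group. Ccl2 with Ccl7 and Cxcl3 with Cxcl5 rise together over all groups, while P6 and SN161 alone are high in both Ccl20 and Csf3.

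Of 39 receptor genes listed for these ligands, 35 were measured and 14 were above the median in no line, among them Cxcr2 (at most 4.07), the receptor of the neutrophil attractants, and Ccr6, Ccr9, Cxcr6 and Cx3cr1. Cxcr4 was above it in MSC7A alone (5.47). By contrast, Ccr2 (6.06 to 6.65), a receptor of Ccl2, Ccl7 and Ccl8, and Ccr10 (5.13 to 5.80) were above it in every line. Cxcr3 (5.11 to 6.24), the receptor of Cxcl10, was above it in 25. Ackr3 ranged from 4.87 in C5N to 11.54 in the keratinocyte line whose keratinocyte flag is 0. Receptors of the cytokines were more widely above the median, although Csf3r and Il7r were above it in no line and Il1r2 in 1. Il1r1 (6.60 to 9.06), Il1rap (5.76 to 8.37), Il6st (7.83 to 10.65) and the Tslp receptor chain Crlf2 (8.20 to 10.39) were above it in every line, whereas Lifr (2.998 to 9.87) was above it in 12 and Csf2rb in CarC alone (7.51). Of the 18 receptors tested, 1 was called, where 5.35% of all genes were: Il18rap, a chain of the interleukin-18 receptor, was higher in spindle lines than in keratinocytes (8.18 ± 0.59, n = 7, against 5.56 ± 0.04, n = 2; difference 2.61, SE 0.71, adjusted p = 0.0381 by limma). Il18r1, the other chain, was above the median in 3 lines.

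Genes upstream and downstream of these ligands were followed through lists of NF-kB, interferon, JAK-STAT3 and inflammasome genes. Between spindle and non-spindle lines, and between non-spindle lines and keratinocytes, no gene of any of these lists was called (0.0633% and 2.02% of all genes). Between spindle lines and keratinocytes 0 of 27 NF-kB genes, 1 of 17 interferon genes (Irf1, 1.36 higher, adjusted p = 0.0463), 1 of 12 JAK-STAT3 genes (Jak2, 0.94 higher, adjusted p = 0.0283) and 0 of 11 inflammasome genes were called, against 5.35% of all genes, so that 0 or 1 call in a list of this size is near the background. Of the marker lists in the same comparison, 3 of 11 keratinocyte markers were called, all lower in spindle lines (2.95% of all genes were called lower). They were Epcam (-8.13, adjusted p = 0.0243), Krt14 (-9.68, adjusted p = 0.0282) and Cdh1 (-8.15, adjusted p = 0.0298), an epithelial adhesion molecule, a basal keratin and E-cadherin. Of 8 leukocyte markers tested 1 was called, Cd14, a lipopolysaccharide co-receptor, which was 2.95 higher (adjusted p = 0.0296), and none of 9 fibroblast, 4 endothelial and 3 melanocyte markers was. The NF-kB genes had a median spindle minus non-spindle difference of 0.03 and the interferon genes one of 0.89, with 16 of 17 above 0, while the median over all genes was 0.04 and 55.8% of them were above 0. Casp1, which cleaves the Il18 precursor, was highest in CarC (11.44), the line with the highest Il18.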

How the data were processed

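Total RNA, taken with Trizol and cleaned on a column, was labelled as cRNA, per the labels' protocols. The authors deposited log2 values made with RMA, per the submitters' processing notes; its version is not given in the sources used here. RMA quantile-normalises the arrays, so a change in total RNA cannot be seen, and low values are background, where differences are compressed. The table held 45037 probe sets with values from 2.28 to 14.92: 34945 named 1 gene symbol, 932 several and 9160 none. For 34741 probe sets with 1 symbol the RefSeq table of GRCm38.p6 held a current gene ID, and it also gave promoter windows and gene order. Arrays were not set apart by depth, and precision is limited by their number.

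1 probe set per gene, that with the highest mean, gave 18193 genes, of which 12641 were above the array's median on 2 or more arrays. limma 3.58.1 in R 4.3.3 (lmFit, then eBayes) estimated the means of 3 groups over 21 lines, with Benjamini-Hochberg adjustment over all 12641 genes and calls at an adjusted p under 0.05. Tables and figures used Python 3.11.15. Replicate numbers follow accession order and pair nothing. The members, gene lists and the 3 lines set apart were chosen with earlier results of these data known. Values by line were given for members called and for the 14 with the highest SD over lines. Cxcl16 was added after its values were seen, as were the members high in a few lines. Of the other lists, called genes and receptors of described ligands were named. Genes that line titles or descriptions name are not reported here.

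The script was tested on data with known answers before use. Alternatives were other probe set rules, filters, placements and averaging of lines, a name-family block, a variance trend, and leaving out each of the 21 lines or MSC12, MSC11B and MSC7A together.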

Additional observations from a re-analysis of the deposited data

Results flagged for a closer look

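In the 7 spindle lines, 9 of the 43 genes had 1 line that stood far from the nearest other, by a gap too large a part of the whole range for Dixon's critical value. Chance marks about 1 in 20 such groups, and both ends of 43 genes were looked at. In 5 of the 9 the line was the highest and read more than 1 log2 unit above the next. These were Il1a in D3 (7.39, next 4.29), Cxcl3 in CarC (11.21, next 6.45), Ccl8 in CarC (6.54, next 4.96), Cxcl10 in D3DP (6.97, next 5.45) and Il1rn in CarB (8.10, next 6.23). Ccl25 was lowest in CarB (5.70, next 6.68). Smaller gaps, in genes near or below the median, were those of Cxcl13 in D3 (4.58), Cxcl9 in CarB (3.49) and Il1b in D3DP (5.16).

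Lines outside the comparisons held 3 values more than 1 log2 unit above every compared line. P6 read 10.15 for Ccl20, where the highest compared line was SN161 at 8.25, and 11.59 for Tslp, where SN161 read 8.70. MSCb1 read 10.66 for Cxcl15, a chemokine best known from mouse lung, where the highest compared line was CarC at 4.62. Its second Cxcl15 probe set read 11.46 in MSCb1 as well. Each is 1 array.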

How the results depend on the processing

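Of 27 named differences under 30 alternatives each (810 values), 780 kept their direction and their side of the threshold, 14 passed it newly, 10 no longer passed and 6 changed sign. Of the 33 genes, 8 were called between spindle and non-spindle lines without MSC12, MSC11B and MSC7A, and 0 to 1 when each line was left out in turn. Between non-spindle lines and keratinocytes 1 was called with the mean over probe sets, with the probe set of highest SD and with no filter. In each case it was Cxcl14. The rule of highest SD read its second probe set (7.45 in C5N, 5.95 in NK). With no filter the first was read (6.56 in C5N, 4.34 in NK), and the mean took in both. Leaving out any single carcinoma line gave 0. Between spindle lines and keratinocytes 2 were called with the probe set of highest SD or with no filter (Ccl25 and Cxcl14), 3 without MSC12, MSC11B and MSC7A (Ccl25, Csf1 and Cxcl16), and 0 to 2 without single lines; with the 4 lines placed by label the 1 gene called was Cxcl16, and with the mean over probe sets Cxcl14. Signs changed for Ccl7 (-0.27) and Cxcl12 (-0.29) in spindle against non-spindle lines with name families averaged, for Cxcl12 with the 4 lines placed by label (-0.20) and without single lines (-0.41 without MSN2 to 0.88 without MSC12, and -0.06 without D3DP), and for Cxcl5 in non-spindle lines against keratinocytes without single lines (-0.34 without C5N to 6.11 without NK). Genes above the median per line, 21.5 at the middle, came to 12 against the median of gene values and to 12 at 1 log2 unit above the array median. Over all genes, the 8 calls between spindle and non-spindle lines became 0 with the 4 lines placed by label or families averaged, 2 with a family block (correlation 0.104), 3 with no filter, 5 with the mean over probe sets, 1954 without MSC12, MSC11B and MSC7A and 2 to 471 without single lines; the 255 between non-spindle lines and keratinocytes became 147 without C5N, and the 676 between spindle lines and keratinocytes 258 without C5N and 284 without NK. A lone keratinocyte line was assumed to vary like the other groups. No paired analysis was possible because the labels give no replicate numbers.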
